A study of Mus musculus with 4 samples.

Results

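Fibroblast growth factor (FGF) ligands, a receptor for them and genes driven by the kinase ERK were examined in mouse embryonic stem cells labelled as a knockout of Kdm2a and in wild-type cells. The 10 genes were the ligands Fgf4, Fgf15 and Fgf18, the receptor Fgfr1, the ETS transcription factors Etv4 and Etv5, and the inhibitors Spry2, Spry4, Spred1 and Dusp6. They were picked by name, as the rows of the count table whose Entrez gene number maps to these symbols, and all 10 were found among the 24116 genes of the table. All 10 also passed the filter on low counts, together with the rest of the 14194 genes tested. Because the genes were picked with earlier results of the same libraries known, their differences between the groups are descriptions and carry no test of their own.

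Kdm2a encodes a demethylase of histone H3 lysine 36 that binds unmethylated CpG through a CXXC zinc finger, and the comparison asks which genes respond to its loss. RNA was sequenced from 2 libraries labelled knockout and 2 labelled wild type, all embryonic stem cells of the strain given as 12910la, grown on gelatin with serum and LIF. The knockout line was expanded from a single clone of cells transfected with a guide RNA and sorted for GFP, so an effect of Kdm2a and a property of that clone cannot be told apart. The genotype label of the same cells speaks of a knock-down, while their titles speak of a knockout. The labels do not name separate cultures behind the libraries of a group, so every p-value is relative to a spread between libraries that may be technical.

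In mouse embryonic stem cells FGF4, made by the cells themselves, signals mainly through FGFR1 and the RAS, RAF, MEK and ERK kinases. This signal makes cells competent to leave the naive state and to enter the primitive endoderm or the formative epiblast. ERK activity switches on immediate early genes and the ETS factors ETV4 and ETV5, and it also induces its own brakes. These brakes are the Sprouty and SPRED proteins, which act upstream of RAF, and dual-specificity phosphatases such as DUSP6, which dephosphorylates ERK. RNA of these targets is often used as a readout of the pathway, while its kinases are regulated mostly by phosphorylation.

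Total counts lay between 18844246 and 19056529 per library. Kdm2a itself had 194 and 261 CPM in the libraries labelled knockout, against 151 and 184 CPM in wild type, which goes against a loss of its RNA, so directions rest on the labels alone. CPM here is the count relative to the library size after TMM scaling. The library labelled knockout 2 stood apart, correlating at 0.938 to 0.959 with the other libraries, whereas knockout 1 correlated at 0.978 and 0.984 with wild type and the wild-type libraries at 0.968 with each other. Such values run over genes, which do not replicate one another. The summed level of 10 embryonic stem cell markers was 6586 and 5671 CPM in the libraries labelled knockout and 6009 and 6165 CPM in wild type, a sum in which single markers differed between libraries in both directions. The 8 fibroblast markers summed to 38.9 and 24.6 CPM in the libraries labelled knockout and 48.4 and 22.3 CPM in wild type. Thy1 made up most of this, at 31.0 and 17.8 CPM in the libraries labelled knockout and 36.5 and 16.4 CPM in wild type, Col1a1 had 38 to 169 counts and Twist1 30 to 84, and Col1a2, Col3a1, Postn, Dcn and Lum had 0 to 6 counts in every library. In bulk RNA fewer cells of a type and less RNA per cell cannot be told apart.

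None of the 10 genes was called different between the groups by edgeR's quasi-likelihood test over all genes. In that test 0 of 14194 genes (0%) had an adjusted p under 0.05. The lack of a call does not show equal levels, since this design could miss most 2-fold changes. At an unadjusted p under 0.05 there was 1 of the 10 genes, against 242 of all genes tested (1.7%). Since the genes were chosen on this contrast, nothing is read from these counts. DESeq2 called 0 of the 10 genes and 2 of all genes (0.0141%), and limma-voom called 0 of both. The groups did not overlap for 1 of the 10 genes, Fgf18, against 24.4% of all genes tested. The median log2 fold change, given throughout as knockout minus wild type, was 0.15 over the 10 genes and 0.00289 over all genes tested.

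**Figure D1:**
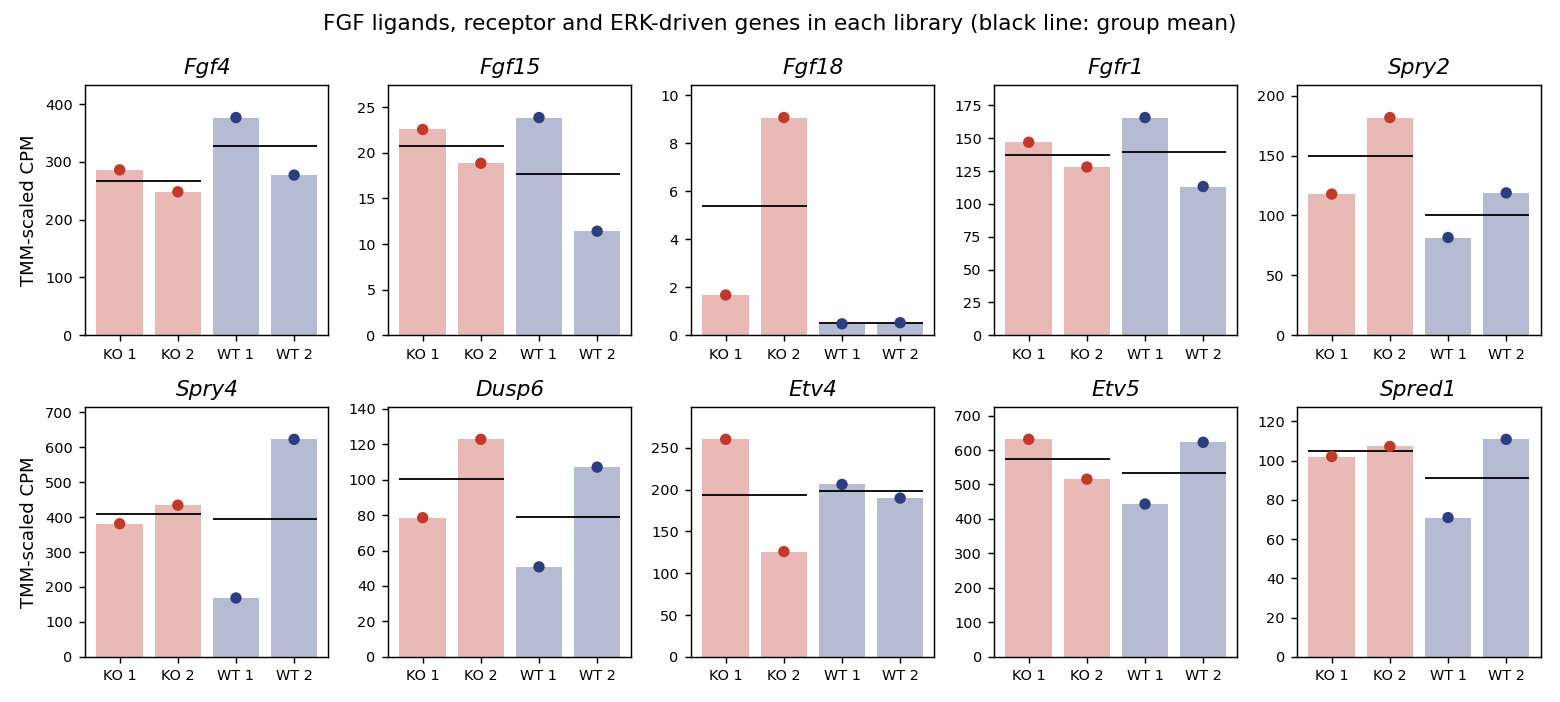
TMM-scaled CPM of the 10 genes (vertical axes from 0, one scale per gene) in the libraries labelled knockout (KO 1 and KO 2, red) and wild type (WT 1 and WT 2, blue), with a black line at each group mean. Groups are apart for Fgf18 alone, and the bars of Spry4 differ most between the wild-type libraries, at 622 and 168 CPM.

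Fgf4 was by far the most abundant FGF ligand. Fgf4 (Entrez gene 14175, GRCm38.p6 chromosome 7, 144861386 to 144865245) encodes the ligand that embryonic stem cells make for themselves. It had 5479 and 4516 counts in the libraries labelled knockout, against 7213 and 5347 in wild type, which is 286 and 248 CPM against 377 and 277 CPM. Wild type 1 was the highest library, and the other 3 lay close together. The group means were 267 ± 26.9 CPM in the libraries labelled knockout and 327 ± 70.5 CPM in wild type (SD, n = 2 each), a log2 fold change of -0.29 with a standard error (SE) of 0.24. Per kilobase of exon, Fgf4 held 73.8% and 66.9% of the summed level of the 22 FGF ligands in the libraries labelled knockout, and 80.0% and 83.5% in wild type.

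Fgf15 differed 2.09-fold between the wild-type libraries, and its groups overlapped. Fgf15 (Entrez gene 14170, chromosome 7, 144896532 to 144900953), the mouse counterpart of human FGF19 and best known as a gut hormone that restrains bile acid synthesis, is also made in the embryo. It had 432 and 343 counts in the libraries labelled knockout and 457 and 220 in wild type. Its level was 22.6 and 18.9 CPM in the libraries labelled knockout, against 23.9 and 11.4 CPM in wild type. The values of the libraries labelled knockout lay between those of the wild-type libraries. The log2 fold change was 0.23 (SE 0.41), and it turned to -0.20 without wild type 2.

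Fgf18 had the largest positive log2 fold change of the 14194 genes that passed the count filter, and it was carried mainly by a single library. The rank depends on the filter, which Fgf18 passed through the libraries labelled knockout, and was 154 of 18724 genes with no filter beyond 1 count. Fgf18 (Entrez gene 14172, chromosome 11, 33116970 to 33147400) encodes a ligand known for its part in bone, cartilage and lung development. It had 32 and 165 counts in the libraries labelled knockout, against 9 and 10 in wild type. Exact Poisson 95% intervals, which cover counting error only, ran from 21.9 to 45.2 counts for the library labelled knockout 1, from 141 to 192 for knockout 2, and from 4.12 to 17.1 and 4.80 to 18.4 for wild type 1 and 2. The interval of each library labelled knockout lay above those of both wild-type libraries. The intervals leave out the spread between libraries, and the gene was picked with earlier results known. No difference between the groups is therefore read from them.

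As levels, Fgf18 was at 1.67 and 9.07 CPM in the libraries labelled knockout and at 0.47 and 0.52 CPM in wild type. The library labelled knockout 2 was 5.43 times as high as knockout 1. The log2 fold change was 3.42 (SE 0.90), 1.75 without knockout 2 and 4.18 without knockout 1. Without knockout 1, Fgf18 was the 1 of the 10 genes among the 91 genes that edgeR called over all genes (0.618%, of which 0.51% higher and 0.109% lower). In that fit knockout 2 alone stands for its group and is assumed to vary like wild type. Without knockout 2, 0 of the 10 genes were called, against 0.0549% of all genes. Per kilobase of exon the gene made up 1.16% and 6.58% of the FGF ligand level in the libraries labelled knockout, and 0.269% and 0.420% in wild type.

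Sums of primitive endoderm and neural markers were also highest in the library labelled knockout 2, and their part in the Fgf18 value was not tested. Foxa2, a factor of endoderm and notochord, had 1 and 59 counts in the libraries labelled knockout and 1 and 0 in wild type. Sox7, of primitive endoderm, had 11 and 60 counts in the libraries labelled knockout and 5 and 12 in wild type. Both were named after their values were seen. The 8 primitive endoderm markers summed to 98.7 and 143 CPM in the libraries labelled knockout, against 115 and 76.7 CPM in wild type. Of the 6 tested, 3 were highest in knockout 2, against 33.6% of all genes tested. The other 3 (Gata4, Gata6 and Pdgfra) were highest in wild type 1, as was Sox17, which was not tested. Lama1 made up most of the sum, at 88.0 and 125 CPM in the libraries labelled knockout, against 101 and 70.2 CPM in wild type. The other 7 endoderm markers summed to 10.7 and 18.0 CPM in the libraries labelled knockout, against 13.8 and 6.59 CPM in wild type. All 6 tested neural markers of 8 listed were highest in knockout 2, against 33.6% of all genes tested, with Neurog2 at 0 in every library. The 8 summed to 125 and 169 CPM in the libraries labelled knockout and 97.6 and 126 CPM in wild type. Of the 8 mesoderm markers Eomes alone was highest there by more than 1 CPM, at 10.3 and 25.9 CPM in the libraries labelled knockout, against 12.7 and 16.6 CPM in wild type. The other 7 summed to 3.92 and 3.68 CPM in the libraries labelled knockout, against 3.97 and 2.85 CPM in wild type.

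The stretch around the start of Fgf18, 250 bases before it to 50 after, is shown because the binding domain of KDM2A recognises CpG and the groups did not overlap for this gene. The sequence is from RefSeq, written 5′ to 3′ along the gene, with each CpG in capitals.
Fgf18, GRCm38.p6 chr11:33147351-33147650, minus strand: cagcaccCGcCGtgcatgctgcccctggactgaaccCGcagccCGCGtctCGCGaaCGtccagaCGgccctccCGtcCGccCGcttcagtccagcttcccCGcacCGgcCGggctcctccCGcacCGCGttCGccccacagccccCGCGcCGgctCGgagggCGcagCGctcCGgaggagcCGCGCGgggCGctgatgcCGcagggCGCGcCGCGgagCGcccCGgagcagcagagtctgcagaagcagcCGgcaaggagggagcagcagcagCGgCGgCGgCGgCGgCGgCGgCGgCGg
It held 47 CpG in 300 bases, at percentile 97.7 of the 9944 promoters of genes tested, whose median was 20. A part of CpG or KDM2A in the Fgf18 levels was not tested.

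Fgfr1 was the main FGF receptor and its level overlapped between the groups. Fgfr1 (Entrez gene 14182, chromosome 8, 25518759 to 25575718) encodes the receptor through which FGF4 acts in these cells. It had 2813 and 2330 counts in the libraries labelled knockout, against 3173 and 2184 in wild type. Its level was 147 and 128 CPM in the libraries labelled knockout, inside the wild-type values of 166 and 113 CPM. The log2 fold change was -0.02 (SE 0.26). Per kilobase of exon Fgfr1 held 77.9% and 65.7% of the summed level of Fgfr1 to Fgfr4 in the libraries labelled knockout, and 72.9% and 80.2% in wild type. The lower share in knockout 2 came with more Fgfr2, which made up 14.2% there, 2.25% in knockout 1, and 2.04% and 3.90% in wild type. A lncRNA gene, Gm16159, overlaps Fgfr1 and had 79 to 138 counts in a library, and the strand setting of the counting is not given in the sources used here.

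**Figure D2:**
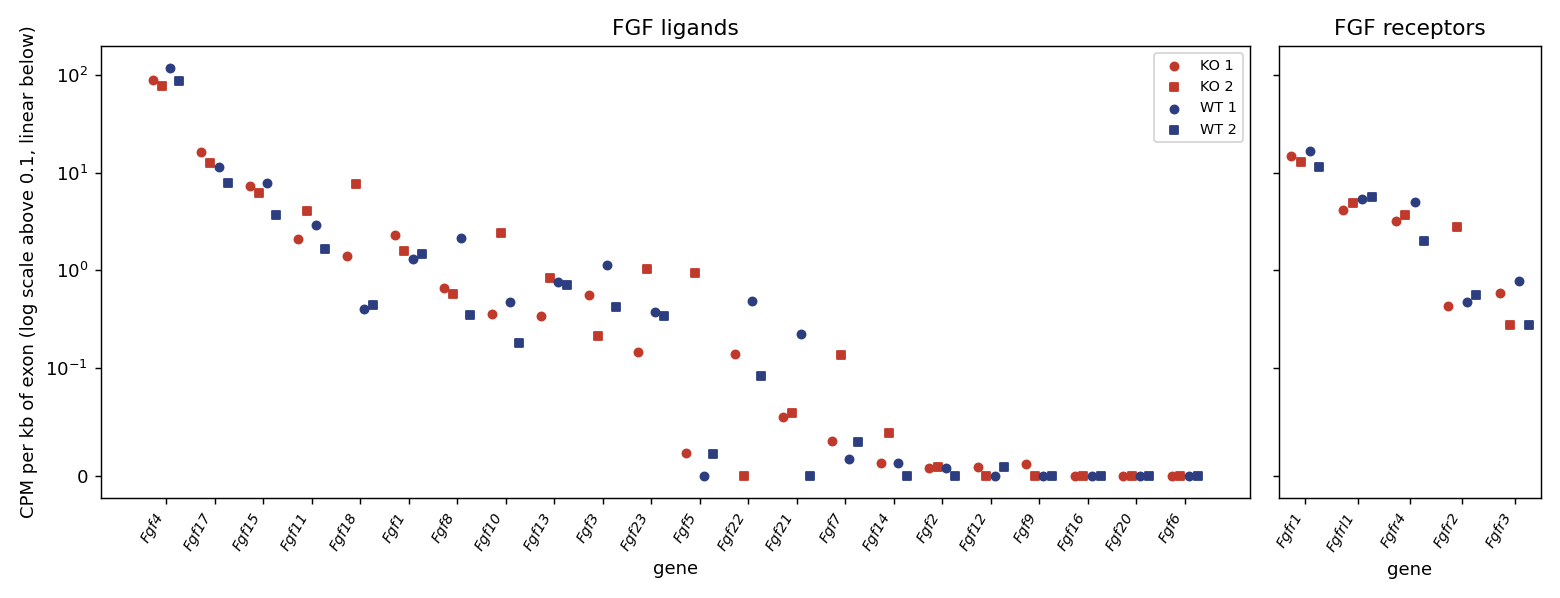
CPM per kilobase of exon (log scale above 0.1, linear below) of the 22 FGF ligands (left) and of Fgfr1 to Fgfr4 with Fgfrl1 (right), each point a library labelled knockout (red) or wild type (blue). Fgf4 and Fgfr1 lead their families in every library, and the knockout 2 points of Fgf18, Fgf10, Fgf5 and Fgfr2 lie above the other 3 libraries.

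Among the ETS factors, Etv5 had the highest level of the 10 genes and Etv4 split the libraries labelled knockout. Etv5 (Entrez gene 104156, chromosome 16, 22381313 to 22439570) and Etv4 (Entrez gene 18612, chromosome 11, 101769747 to 101785310) belong to the PEA3 group and carry FGF signals to target genes. Etv5 had 12077 and 9375 counts in the libraries labelled knockout and 8486 and 12003 in wild type. Its level was 631 and 515 CPM in the libraries labelled knockout, against 443 and 622 CPM in wild type, with a log2 fold change of 0.11 (SE 0.24). The groups overlapped, with wild type 1 the lowest library.

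Etv4 had 4980 and 2290 counts in the libraries labelled knockout, against 3947 and 3662 in wild type. Its level of 260 CPM in knockout 1 was the highest and that of 126 CPM in knockout 2 the lowest, with wild type between them at 206 and 190 CPM. The log2 fold change of -0.04 (SE 0.34) covered opposite values, 0.40 without knockout 2 and -0.66 without knockout 1. Etv1, the remaining PEA3 gene, named after its values were seen, had its higher value in knockout 2, at 34.6 and 70.3 CPM in the libraries labelled knockout, against 25.8 and 33.7 CPM in wild type.

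The feedback inhibitors shared their lowest library, which was wild type 1. Spry4, a Sprouty protein that dampens RAS and RAF activation, had 7290 and 7893 counts in the libraries labelled knockout and 3224 and 12004 in wild type. Its level was 381 and 434 CPM in the libraries labelled knockout, against 168 and 622 CPM in wild type. Both libraries labelled knockout lay within the wild-type range, whose ends were 3.69-fold apart. That gap was larger than in 99.6% of the 7707 genes averaging 20 CPM or more, and the log2 fold change was 0.04 (SE 0.53). Without wild type 2 it was 1.28, and without wild type 1 it was -0.61.

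Dusp6 (Entrez gene 67603, chromosome 10, 99263231 to 99267489), the cytoplasmic phosphatase of ERK, followed the same order in wild type. It had 1503 and 2233 counts in the libraries labelled knockout and 972 and 2065 in wild type, at levels of 78.5 and 123 CPM in the libraries labelled knockout, against 50.8 and 107 CPM. The wild-type libraries were 2.11-fold apart and the libraries labelled knockout 1.56-fold. The log2 fold change of 0.35 (SE 0.40) was 0.99 without wild type 2 and -0.09 without wild type 1.

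Spry2 had the highest fold change among the inhibitors. Spry2 (Entrez gene 24064, chromosome 14, 105891947 to 105896819), the Sprouty protein also known to bind the ubiquitin ligase CBL, had 2254 and 3305 counts in the libraries labelled knockout and 1560 and 2291 in wild type. Its level was 118 and 182 CPM in the libraries labelled knockout, against 81.5 and 119 CPM in wild type. Knockout 1 lay just below wild type 2, so the groups overlapped. The log2 fold change was 0.58 (SE 0.30) and stayed positive with each library left out, between 0.23 and 0.88.

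Spred1 (Entrez gene 114715, chromosome 2, 117121071 to 117182279), which recruits neurofibromin to switch off RAS, had the narrowest range among the inhibitors. It had 1954 and 1950 counts in the libraries labelled knockout and 1358 and 2138 in wild type. The level was 102 and 107 CPM in the libraries labelled knockout, against 71.0 and 111 CPM in wild type. The 3 libraries other than wild type 1 lay together, and the log2 fold change was 0.20 (SE 0.27).

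No promoter window was available for Spry4. Those of Spry2, Dusp6, Spred1 and Etv5 are shown because these genes had their lowest level in the same wild-type library. They are also shown because KDM2A binds CpG, but a part of CpG or KDM2A in that low level was not tested. They are from RefSeq and span 250 bases before to 50 after the start, 5′ to 3′ along the gene, with each CpG in capitals.
Spry2, GRCm38.p6 chr14:105896770-105897069, minus strand: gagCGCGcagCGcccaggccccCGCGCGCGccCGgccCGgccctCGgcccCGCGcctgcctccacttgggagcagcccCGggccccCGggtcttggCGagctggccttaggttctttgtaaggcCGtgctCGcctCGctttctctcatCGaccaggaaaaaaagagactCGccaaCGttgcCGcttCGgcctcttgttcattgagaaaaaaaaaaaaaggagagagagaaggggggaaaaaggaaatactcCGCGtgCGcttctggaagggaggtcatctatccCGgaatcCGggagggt
Dusp6, GRCm38.p6 chr10:99262981-99263280, plus strand: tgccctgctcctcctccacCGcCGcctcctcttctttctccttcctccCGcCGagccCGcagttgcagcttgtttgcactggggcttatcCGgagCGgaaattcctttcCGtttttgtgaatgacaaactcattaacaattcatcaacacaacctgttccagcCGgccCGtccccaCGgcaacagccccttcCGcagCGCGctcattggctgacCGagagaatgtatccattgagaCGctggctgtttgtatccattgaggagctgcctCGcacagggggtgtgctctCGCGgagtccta
Spred1, GRCm38.p6 chr2:117120821-117121120, plus strand: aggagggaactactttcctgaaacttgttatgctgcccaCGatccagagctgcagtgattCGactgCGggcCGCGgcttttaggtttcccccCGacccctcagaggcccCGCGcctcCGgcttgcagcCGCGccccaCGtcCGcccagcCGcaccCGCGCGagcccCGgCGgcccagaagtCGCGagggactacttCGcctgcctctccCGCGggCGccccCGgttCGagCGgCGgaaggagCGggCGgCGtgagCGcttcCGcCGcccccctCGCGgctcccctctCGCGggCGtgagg
Etv5, GRCm38.p6 chr16:22439521-22439820, minus strand: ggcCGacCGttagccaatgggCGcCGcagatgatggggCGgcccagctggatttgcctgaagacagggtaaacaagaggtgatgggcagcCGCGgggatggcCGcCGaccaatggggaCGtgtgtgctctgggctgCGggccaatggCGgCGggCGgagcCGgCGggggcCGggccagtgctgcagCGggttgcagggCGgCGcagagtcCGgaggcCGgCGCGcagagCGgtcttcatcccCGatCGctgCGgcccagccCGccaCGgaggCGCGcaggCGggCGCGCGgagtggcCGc
Dusp6 held 19 CpG, close to the median of 20 for promoters of genes tested, Spry2 held 28, Etv5 37 and Spred1 40. With Fgf4 at 28 and a second Etv5 window at 19, the 7 windows of the 6 members in the table had 19 to 47 CpG, where the 9944 windows of genes tested had a median of 20 with quartiles of 11 and 28, and the 32851 windows of the whole table a median of 7. The letters CCGGAAG and CAGGAAG (ETS), TGANTCA (AP-1) and CACGTG (E-box) were searched on both strands, and none of the 7 windows held any of them. In this order they occur in 16.01%, 11.9%, 5.17% and 9.76% of the windows of genes tested, and in 8.86%, 13.3%, 7.81% and 7.15% of all windows of the table. Only these exact letters were searched, so other forms of ETS, AP-1 or E-box sites in the windows were not counted.

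**Figure D3:**
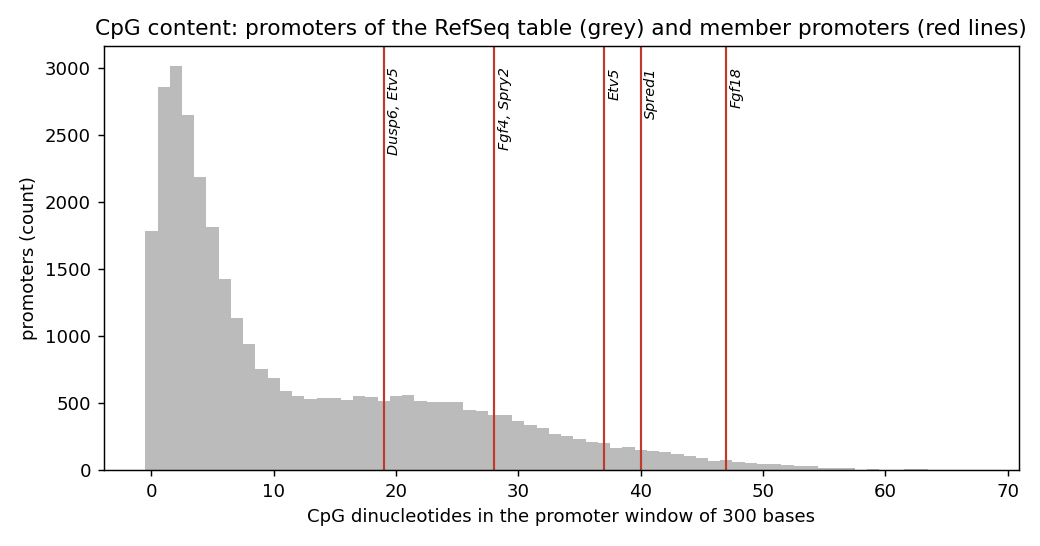
Number of promoter windows (vertical axis) by their CpG count in 300 bases (horizontal axis) for the 32851 windows of the RefSeq table (grey), with red lines at the 7 windows of the 6 members it holds. The red lines run from 19 to 47 CpG, and the median is 7 for the grey windows, most of which belong to genes not tested, and 20 for the windows of genes tested.

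The spread between the wild-type libraries exceeded the difference between the groups for most of the 10 genes. The absolute log2 gap between wild type 1 and 2 was larger than the absolute log2 fold change in 8 of 10 genes, against 64.4% of all genes tested. With the gap between the libraries labelled knockout counted as well, this held for 9 of 10, against 86.3% of all genes, and the exception was Fgf18. Wild type 1 was the lowest library for 6 of the 10 genes (Fgf18, Spry2, Spry4, Dusp6, Etv5 and Spred1), against 27.3% of all genes. Fgf4, Fgf15 and Fgfr1 were instead highest in wild type 1. The set was therefore not ordered alike by library, since the ligand and receptor genes apart from Fgf18 were high where the inhibitors were low. Of the 10 embryonic stem cell markers, 5 were higher in wild type 2 than in wild type 1 and 5 lower. Nanog was at 524 and 436 CPM in the libraries labelled knockout, against 383 and 761 CPM in wild type, and Zfp42 at 410 and 326 CPM in the libraries labelled knockout, against 260 and 565 CPM in wild type. Dppa5a ran the other way, at 413 and 273 CPM in the libraries labelled knockout, against 512 and 303 CPM in wild type. These 3 were named after their values were seen, and their part in the wild-type gaps was not tested. Trophoblast markers also split the wild-type libraries, and their part was not tested. The 7 listed summed to 58.7 and 83.3 CPM in the libraries labelled knockout, against 86.4 and 28.5 CPM in wild type. Tfap2c made up most of this, at 43.5 and 75.0 CPM in the libraries labelled knockout, against 66.3 and 23.1 CPM in wild type. The other 6 summed to 15.2 and 8.30 CPM in the libraries labelled knockout, against 20.1 and 5.39 CPM in wild type. The 5 tested had wild-type gaps over 2-fold, against 10.8% of all genes tested, but not in 1 direction. Gata3, with 5 and 14 counts in wild type 1 and 2, was higher in wild type 2. Counts were also low for Hand1, at 17 and 3 in wild type 1 and 2, and for Krt7, at 60 and 15. Cdx2 and Elf5 had 0 to 2 counts.

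**Figure D4:**
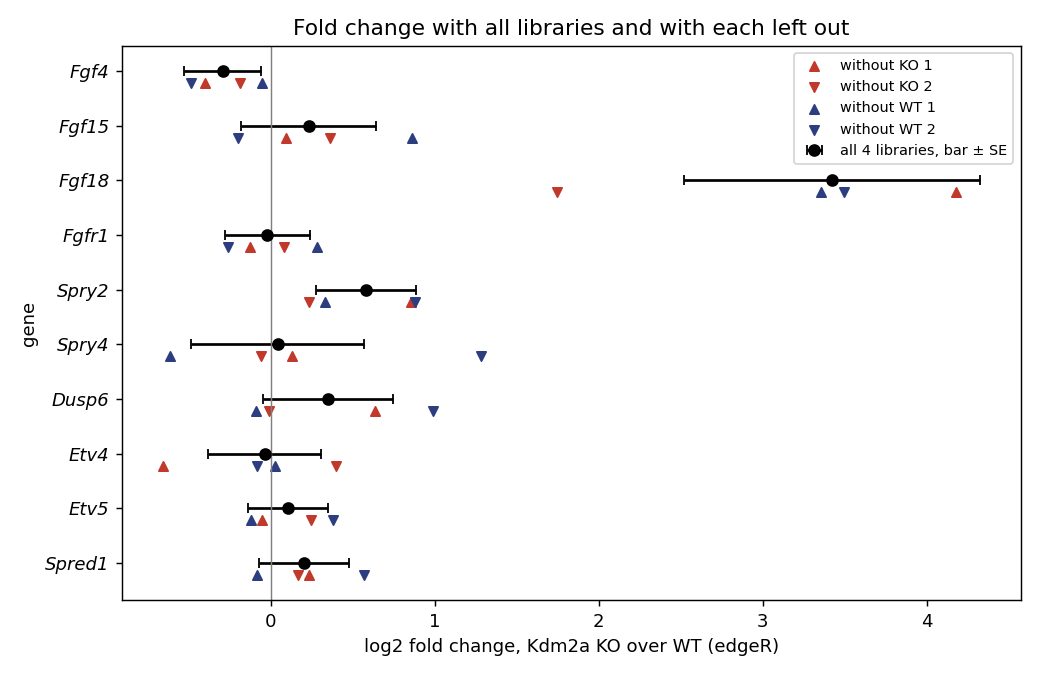
Log2 fold change (horizontal axis, knockout over wild type, edgeR) of each of the 10 genes (vertical axis) with all 4 libraries (black, bar ± SE), and with each library left out (triangles). Fgf4 stays negative and Fgf18 and Spry2 stay positive throughout, while the other 7 have triangles on both sides of 0.

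On the scale of CPM per kilobase of exon, which allows genes to be compared, the means over 4 libraries were 135 for Etv5, 93.0 for Fgf4, 84.4 for Spry4, 63.0 for Etv4 and 59.9 for Spry2. They were 28.7 for Dusp6, 14.4 for Spred1, 14.0 for Fgfr1, 6.27 for Fgf15 and 2.47 for Fgf18. The ranges over the libraries overlapped for every neighbouring pair in this order except Fgfr1 and Fgf15. The feedback and ETS genes thus spanned the upper part of the order, with Fgf4 among them. Exon lengths came from GENCODE vM21, which may not be the annotation used for counting.

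Of the tested genes that respond to ERK within minutes to hours, 15 of 19 were higher in wild type 2 than in wild type 1. Of all genes tested 47.5% were, and the exceptions in the list were Fos, Fosb, Fosl1 and Ier5. Ier5 was at 5.64 and 6.49 CPM in the libraries labelled knockout, against 6.58 and 2.70 CPM in wild type. This tilt was not particular to the response genes. It held for 14 of 18 genes of the RAS, RAF, MEK and ERK core and 7 of 9 further ETS factors and partners. Of the further feedback genes, 6 of 12 were higher in wild type 2. Of 21 listed response genes 19 were tested, 0 passed in either direction, and their median log2 fold change was 0.10. In this list 10 of 19 were lowest in wild type 1 and 9 of 19 highest in wild type 2, against 27.3% and 19.8% of all genes. In the core 9 of 18 were lowest in wild type 1 and 3 of 18 highest in wild type 2. Egr1, an immediate early zinc finger factor, was at 35.6 and 37.9 CPM in the libraries labelled knockout, against 29.0 and 224 CPM in wild type. Nab2, a corepressor that EGR1 induces, was at 25.2 and 33.8 CPM in the libraries labelled knockout, against 20.4 and 165 CPM in wild type. Myc was at 65.9 and 59.9 CPM in the libraries labelled knockout, against 16.2 and 72.3 CPM in wild type.

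Egr1, Nab2, Myc and Ier5 were chosen after their values were seen. For Egr1 and Nab2 wild type 2 stood far above the other 3 libraries, and for Myc wild type 1 stood far below them. The wild-type gaps of Egr1, Nab2 and Myc were 7.71-fold, 8.08-fold and 4.46-fold, larger than in 99.9%, 99.96% and 99.7% of genes averaging 20 CPM or more. The most abundant genes of the list were Epha2, a receptor tyrosine kinase, Ier2, an immediate early gene, and Ccnd1, which encodes cyclin D1. Epha2 was at 235 and 115 CPM in the libraries labelled knockout and 185 and 367 CPM in wild type. Ier2 was at 151 and 133 CPM in the libraries labelled knockout and 88.0 and 177 CPM in wild type. Ccnd1 was at 113 and 92.1 CPM in the libraries labelled knockout and 65.5 and 101 CPM in wild type. All 3 had a higher level in wild type 2 than in wild type 1, and their groups overlapped.

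**Figure D5:**
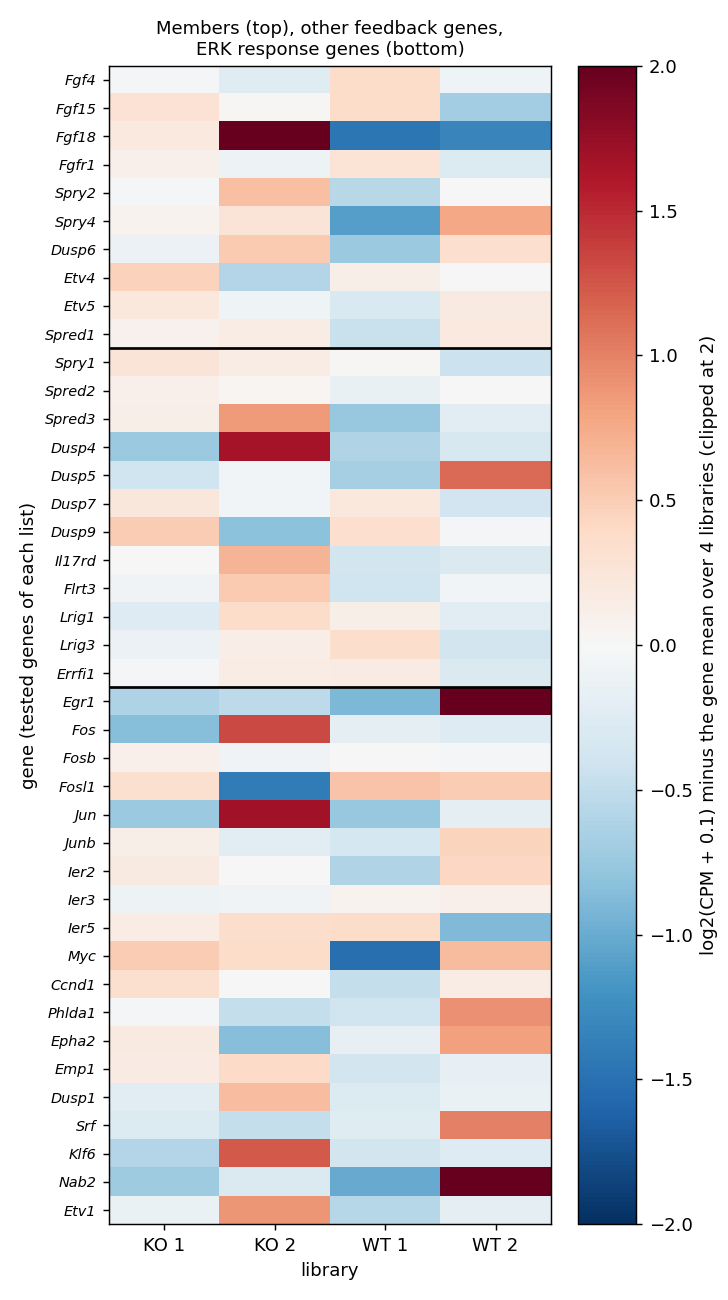
Log2(CPM + 0.1) minus the gene's mean over the 4 libraries (colour, red above and blue below, clipped at 2) for the 10 genes (top block), the 12 tested further feedback genes (middle) and the 19 tested ERK response genes (bottom), by library (columns). Egr1 and Nab2 are dark red in WT 2 alone, and Fgf18, Dusp4 and Jun in KO 2 alone.

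Of the further feedback genes, 12 of 13 listed were tested, 0 passed in either direction, 9 had a positive fold change, and the median was 0.14. Groups did not overlap for 4 of the 12 (33.3%), against 24.4% of all genes tested. The 4 were Spry1, Spred2, Spred3 and Il17rd, all higher in the libraries labelled knockout, as were 11.7% of all genes tested. The most abundant were Dusp9, Spred2 and Il17rd. Dusp9, an X-linked ERK phosphatase, was at 204 and 81.3 CPM in the libraries labelled knockout and 182 and 141 CPM in wild type. Spred2 was at 121 and 115 CPM in the libraries labelled knockout and 101 and 113 CPM in wild type. Il17rd, the FGF antagonist also called Sef, was at 89.8 and 145 CPM in the libraries labelled knockout and 70.4 and 73.8 CPM in wild type, a log2 fold change of 0.70 (SE 0.28) that did not pass edgeR's quasi-likelihood test (adjusted p = 1.00).

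Of 19 further FGF ligands 8 were tested and 0 passed, with a median log2 fold change of 0.48, and Fgf6, Fgf16 and Fgf20 had no count in any library. Fgf17, of the FGF8 subfamily, was at 27.6 and 21.4 CPM in the libraries labelled knockout and 19.3 and 13.1 CPM in wild type. Fgf1 was at 12.6 and 8.58 CPM in the libraries labelled knockout and 7.05 and 7.93 CPM in wild type. These were the 2 of the 8 tested ligands (25%) whose groups did not overlap, against 24.4% of all genes. Fgf11, an intracellular family member, was at 6.37 and 12.5 CPM in the libraries labelled knockout and 8.83 and 4.98 CPM in wild type. Named after their values were seen, Fgf10 had 31 and 203 counts in the libraries labelled knockout and 42 and 16 in wild type, and Fgf5, a formative epiblast gene, had 1 and 43 counts in the libraries labelled knockout and 0 and 1 in wild type. The 6 listed markers of formative and primed epiblast, Fgf5 among them, summed to 288 and 311 CPM in the libraries labelled knockout and 252 and 310 CPM in wild type. Of the 5 tested, 1 was highest in knockout 2, against 33.6% of all genes tested.

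Fgfr2 and Dusp4, singled out after their values were seen, were like Fgf18 high in the library labelled knockout 2. Of 6 further receptors and co-receptors 4 were tested and 0 passed with all libraries, with a median of -0.15. Fgfr2 had 85 and 527 counts in the libraries labelled knockout and 93 and 111 in wild type. Dusp4, a nuclear ERK phosphatase, had 175 and 891 counts in the libraries labelled knockout and 193 and 238 in wild type. Without knockout 1 both passed edgeR's quasi-likelihood test (adjusted p = 0.0314 each), at log2 fold changes of 2.44 and 2.12, as did 0.618% of all genes, again with knockout 2 alone in its group. Without knockout 2, none of the pathway genes passed. Of the remaining receptors, Fgfrl1, which lacks a kinase domain, was at 11.5 and 13.6 CPM in the libraries labelled knockout and 14.8 and 15.7 CPM in wild type, and Fgfr4 was at 11.4 and 13.1 CPM in the libraries labelled knockout and 17.7 and 7.05 CPM in wild type.

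The median absolute gap between the wild-type libraries was smaller for the kinases between receptor and targets than for the 10 genes, and that between the libraries labelled knockout was similar. All 18 genes of the RAS, RAF, MEK and ERK core were tested, 0 passed, and the median log2 fold change was 0.03. Rps6ka1, a kinase that ERK activates, was at 251 and 165 CPM in the libraries labelled knockout and 289 and 218 CPM in wild type. Nras was at 192 and 207 CPM in the libraries labelled knockout and 164 and 190 CPM in wild type. Between the wild-type libraries the median absolute gap was 0.19 on the log2 scale for this core, against 0.55 for the 10 genes, 0.62 for the ERK response genes and 0.34 for all genes tested. Between the libraries labelled knockout it was 0.27 for the core and 0.27 for the 10 genes, against 0.39 for all genes. The difference between the lists was not tested.

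All 11 adaptors were tested, 0 passed, and the median was 0.03. Gab1, a docking protein, was at 631 and 556 CPM in the libraries labelled knockout and 605 and 651 CPM in wild type. Plcg1, a phospholipase bound by the receptor, was at 175 and 206 CPM in the libraries labelled knockout and 212 and 163 CPM in wild type. Grb2, which links receptors to SOS, was at 153 and 111 CPM in the libraries labelled knockout and 148 and 166 CPM in wild type. The groups overlapped for these 3 genes.

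Of 19 genes for heparan sulfate, the co-receptor of FGF, 18 were tested, 0 passed, and the median was -0.10. Sulf2, which removes sulfate groups from heparan sulfate, was at 248 and 348 CPM in the libraries labelled knockout and 230 and 260 CPM in wild type. Sdc4, a syndecan, was at 129 and 76.5 CPM in the libraries labelled knockout and 220 and 82.2 CPM in wild type. Hs6st1, a sulfotransferase, was at 119 and 135 CPM in the libraries labelled knockout and 101 and 144 CPM in wild type. None of these 3 had groups that were apart.

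All 9 further ETS factors and partners were tested, 0 passed, and the median was -0.01. Groups did not overlap for 5 of the 9 (55.6%), 2 higher and 3 lower in the libraries labelled knockout, against 24.4% of all genes tested. Erf was among the higher and Elk1 among the lower. Erf, an ETS repressor that ERK drives out of the nucleus, was at 328 and 286 CPM in the libraries labelled knockout and 181 and 283 CPM in wild type, with wild type 1 the lowest as for Etv5. Gabpa was at 207 and 214 CPM in the libraries labelled knockout and 207 and 253 CPM in wild type. Elk1, an ERK substrate, was at 54.4 and 51.3 CPM in the libraries labelled knockout and 63.6 and 56.9 CPM in wild type.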

How the data were processed

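The deposited values are raw read counts, 1 column per library, with Entrez gene numbers as names. HISAT2, featureCounts and mm10 are named, per the submitters' processing notes; versions, annotation, strand and multi-mapping options are not given in the sources used. Symbols and coordinates came from RefSeq GRCm38.p6 (24061 of 24116 genes matched) and exon lengths from GENCODE vM21. Groups and replicate numbers came from the titles; table columns named Control were matched to the wild-type titles by number.

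Counts were filtered with filterByExpr, scaled by TMM and tested with edgeR 4.0.16 (R 4.3.3) by the quasi-likelihood F test, genotype alone, Benjamini-Hochberg adjusted over 14194 genes, threshold 0.05. The SE is the absolute log2 fold change over the square root of F. Poisson intervals cover counting error only. The fits were tested on simulated data with 50 genes changed at each fold. There edgeR called 12% of 2-fold and 70% of 4-fold changes, with 4 false calls among 14194 genes. DESeq2 called 26% and 84%, with 37 false calls, and limma-voom 12% and 70%, with 3. DESeq2 1.42.0, limma-voom (limma 3.58.1), other scalings and filters, a replicate block and each library left out were alternatives. The members and lists were chosen with earlier results of these data known. Besides the members, the rule named the 3 genes per pathway list with the highest mean CPM where fewer than 3 passed, and the 3 genes most like the members in pattern; 1 gene the rule named is not reported here.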

Additional observations from a re-analysis of the deposited data

How the results depend on the processing

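With 2 libraries per group the values turn on single libraries. The count of 0 genes called became 2 by DESeq2 and stayed 0 under other scalings, other filters and limma-voom. It ran from 0 to 91 with each library left out, with 91 called without knockout 1 and 8 without knockout 2. Of the 10 genes 0 to 1 were then called (Fgf18 without knockout 1), and of the pathway genes 0 to 2 (Fgfr2 and Dusp4 without knockout 1). The 10 genes whose groups did not overlap numbered 3 to 9 with a library left out, where 1 library is set against 2, compared with 1 for all libraries; they were 5 without knockout 1, 3 without knockout 2, 5 without wild type 1 and 9 without wild type 2, against 73.5%, 51.7%, 55.8% and 67.7% of all genes tested. Their median log2 fold change ran from -0.013 without wild type 1 to 0.47 without wild type 2, and from 0.11 to 0.28 under the 7 other alternatives. In sign, 3 of the 10 genes (Fgf4, Fgf18 and Spry2) held under all alternatives and 7 changed with a library left out. Spry4 was at -0.01 with library totals only and at 0.33 by limma-voom and with the block, and Fgfr1 turned to 0.0027 by limma-voom and 0.0018 with the block; the cause was not tested. With the replicate number as a block, edgeR called 0 genes, 735 had an unadjusted p under 0.05 against 242 without it, and the median over the 10 genes was 0.28. The libraries share only a number: over genes the wild-type gap (1 minus 2) correlated with the knockout gap at 0.347, from 2 pairs.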

Other observations

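Fgf4 and Fgf15 are neighbours in a cluster on mouse chromosome 7 that also holds Fgf3 and Ccnd1, and the genes of the cluster had different orders of the libraries. Fgf4 starts 18.0 kb after the end of Fgf3, Fgf15 starts 31.3 kb after the end of Fgf4, and Ccnd1 starts 29.0 kb after the end of Fgf15 (GRCm38.p6). Fgf3, a ligand of inner ear development, had 25 and 9 counts in the libraries labelled knockout, against 50 and 19 in wild type. Fgf3, Fgf4 and Fgf15 were highest in wild type 1, whereas Ccnd1 was lowest there, with 2172 and 1675 counts in the libraries labelled knockout and 1254 and 1948 in wild type.

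The median pattern of the 10 genes over the 4 libraries, on the log2 CPM scale relative to each gene's mean, was 0.09 and 0.09 in the libraries labelled knockout, and -0.37 and -0.0048 in wild type 1 and 2. Among 7613 other genes averaging 20 CPM or more, those closest to it by root mean square difference were Xpot, which exports tRNA from the nucleus, at 0.0511, Hnrnpa2b1, an RNA-binding protein, at 0.0514, and Prorp, a mitochondrial tRNA nuclease, at 0.0517. Xpot was at 265 and 258 CPM in the libraries labelled knockout, against 189 and 248 CPM in wild type. With 4 libraries this likeness is a description.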
